A study of Mus musculus with 12 samples.

Results

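The 10 genes described here are Trp53, which encodes the transcription factor p53, and 9 genes that p53 is known to switch on: Mdm2, Ccng1, Phlda3, Eda2r, Sesn2, Trp53inp1, Zmat3, Perp and Gadd45a. They were found in the deposited count table by matching its Ensembl identifiers to these mouse symbols, and each matched 1 of the 25674 genes in the table. RNA was measured at embryonic stage E14.5 in neurons of the spiral ganglion, which relay sound from the cochlea to the brainstem. Per the labels, each library holds 100 neurons sorted for the red fluorescent reporter tdTomato, from both inner ears of an individual embryo of either sex, out of 4 litters on a mixed C57BL/6 and sv129 background. The 6 control libraries have the genotype Neurod1Cre; Rosa26tdTOM. The 6 libraries labelled Isl1CKO are Neurod1Cre;Isl1loxP/loxP;Rosa26tdTOM, in which Cre is meant to remove the gene of the LIM homeobox factor ISL1. Both groups therefore carry the Cre transgene, a bacterial artificial chromosome construct in which Neurod1 sequences drive Cre, and the reporter. One label field numbers the libraries as technical replicates whereas the design text calls them biological. Transcripts of each sex, given below, show that in neither group do all libraries come from 1 embryo. If some of them were technical, the p-values would measure the spread between these libraries and not that between independent embryos.

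The protein p53 is held at a low level in most cells because MDM2, itself a p53 product, marks it for degradation. Damage to DNA or other stress blocks that step, p53 protein accumulates, and it raises genes that stop the cell cycle, repair DNA, dampen growth signals or start cell death. Because p53 is controlled mainly as a protein, the mRNA of its targets is the usual readout of its activity. In developing sympathetic neurons p53 is known as part of the route by which cells deprived of growth factor die.

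Total counts ran from 11895603 to 13857480 per library. A floor of 3 counts corresponds to between 0.216 and 0.252 CPM (counts scaled to the library's total), and covers counting error only because the reads carry no molecular identifiers. Levels below are CPM after TMM scaling. The targeted gene Isl1 had 1386 ± 184 CPM in the libraries labelled Isl1CKO and 1533 ± 216 CPM in controls (SD, n = 6). Its levels, replicates 1 to 6 in order, were 1047, 1492, 1402, 1436, 1357 and 1583 CPM in the former and 1167, 1772, 1563, 1425, 1703 and 1570 CPM in the latter. A count over the whole gene cannot show a deleted segment, so the genotype rests on the labels. Among neuron markers, Tubb3 had at least 2761 CPM and Neurod1 at least 846 CPM in every library, while Prph ran from 0.380 to 224 CPM. Neurod1, whose sequences drive Cre, was itself higher in the libraries labelled Isl1CKO (log2 fold change 0.88, edgeR adjusted p = 0.00435). Of the 10 neuron markers tested, 2 were higher and 2 lower at an edgeR adjusted p under 0.05, against 5.01% and 5.19% of all genes tested. Controls 3 and 4 held Xist at 397 and 271 CPM, with 4 Y-linked genes at a mean of at most 0.425 CPM. Controls 1, 2, 5 and 6 held Xist at no more than 0.365 CPM, with those genes at 101 to 117 CPM. Isl1CKO 6 was like the former (184 and 0.266 CPM). Isl1CKO 1 and 4 were like the latter (Xist at most 0.372 CPM, Y-linked genes at least 110.9 CPM). The libraries labelled Isl1CKO 2, 3 and 5 held Xist at 62.7 to 132 CPM together with the 4 Y-linked genes at a mean of 35.6 to 87.0 CPM, although a library is labelled as 1 embryo. Results for the members and the named pathway genes are therefore also given without these 3 libraries where that changes a call. The calls of Neurod1, Tbx18, Phlda1, Gadd45g and Tmem47 were not examined without them. Mitochondrial transcripts took 0.845% to 1.02% of counts in the libraries labelled Isl1CKO and 1.05% to 1.65% in controls.

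The DNA site that p53 binds is a pair of short half-sites, and promoter stretches that hold a match to the p53 half-site consensus are shown to let the promoters be compared. In the RefSeq promoter table (build GRCm38.p6), 7 of the 10 genes had an entry, and Trp53inp1, Zmat3 and Perp had none. The 250 bases before the start held a match in 4 of these 7 promoters, that of Trp53 itself among them, against 7.13% of the 32841 promoters of the same length. In a list of other known p53 targets, read further below, 11 of 75 promoters held one, or 14.7%. The consensus reads the same on both strands, so a single search covers both. Each stretch is written 5′ to 3′ on the gene's strand, with the half-site in capitals. Cdkn1a, which encodes the cell cycle inhibitor p21 and is the best known p53 target, is added for comparison.
Trp53, chr11:69580274-69580303, plus strand: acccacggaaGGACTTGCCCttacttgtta
Mdm2, chr10:117710925-117710954, minus strand: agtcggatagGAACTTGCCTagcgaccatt
Ccng1, chr11:40755452-40755481, minus strand: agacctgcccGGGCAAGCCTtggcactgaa
Gadd45a, chr6:67037428-67037457, minus strand: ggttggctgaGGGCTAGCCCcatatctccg
Cdkn1a, chr17:29090896-29090925, plus strand: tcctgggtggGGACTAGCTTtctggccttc
Cdkn1a, chr17:29090918-29090947, plus strand: tggccttcagGAACATGTCTtgacatgttc

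The capitals begin 75 bases before the RefSeq start in Trp53, 186 in Mdm2, 185 in Ccng1, 40 in Gadd45a, and 73 and 51 in Cdkn1a. GENCODE M21 places the Gadd45a start further upstream, so that this stretch lies in the gene's first exon there. Among all the promoters, 0.0639% held 2 half-sites with at most 13 bases between them, and a Cdkn1a promoter did while none of the 7 did. A match is a resemblance in letters and not a measured binding site. Phlda3, Eda2r and Sesn2 did not hold these letters in this window.

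The first question was whether p53 and its targets differed between the genotypes. Trp53inp1 was about double in the libraries labelled Isl1CKO, at 139 against 69.9 CPM, and was the only one of the 9 tested genes that passed the threshold. Trp53 itself, Ccng1 and Phlda3 had ratios of means between 0.966 and 1.097 and did not pass. Sesn2, Eda2r, Gadd45a, Zmat3 and Mdm2 had higher means in the libraries labelled Isl1CKO, by 1.22 to 1.90 times, but did not pass. Perp was close to the floor and was not tested. The 1 call among 9 is a share of 11.1%, next to 10.2% of all 14813 genes tested. Of all genes, 5.01% were called higher and 5.19% lower, against 1 and 0 of the 9. The members' share is thus near the background and is not a result about them as a group. The median log2 fold change of the 9 was 0.44, and that of all tested genes was 0.0045, with 8 of the 9 above zero against 50.4% of all genes. At an unadjusted p under 0.05, 5 of the 9 were higher, against 11.6% of all genes higher at that level. The members were chosen with earlier results of these data known and were read in the same libraries. The median and these counts are therefore no test of them as a group. In pooled cells, fewer cells of a type and less RNA per cell cannot be told apart. Without the 3 libraries that held transcripts of both sexes the count of called members was still 1.

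**Figure D1:**
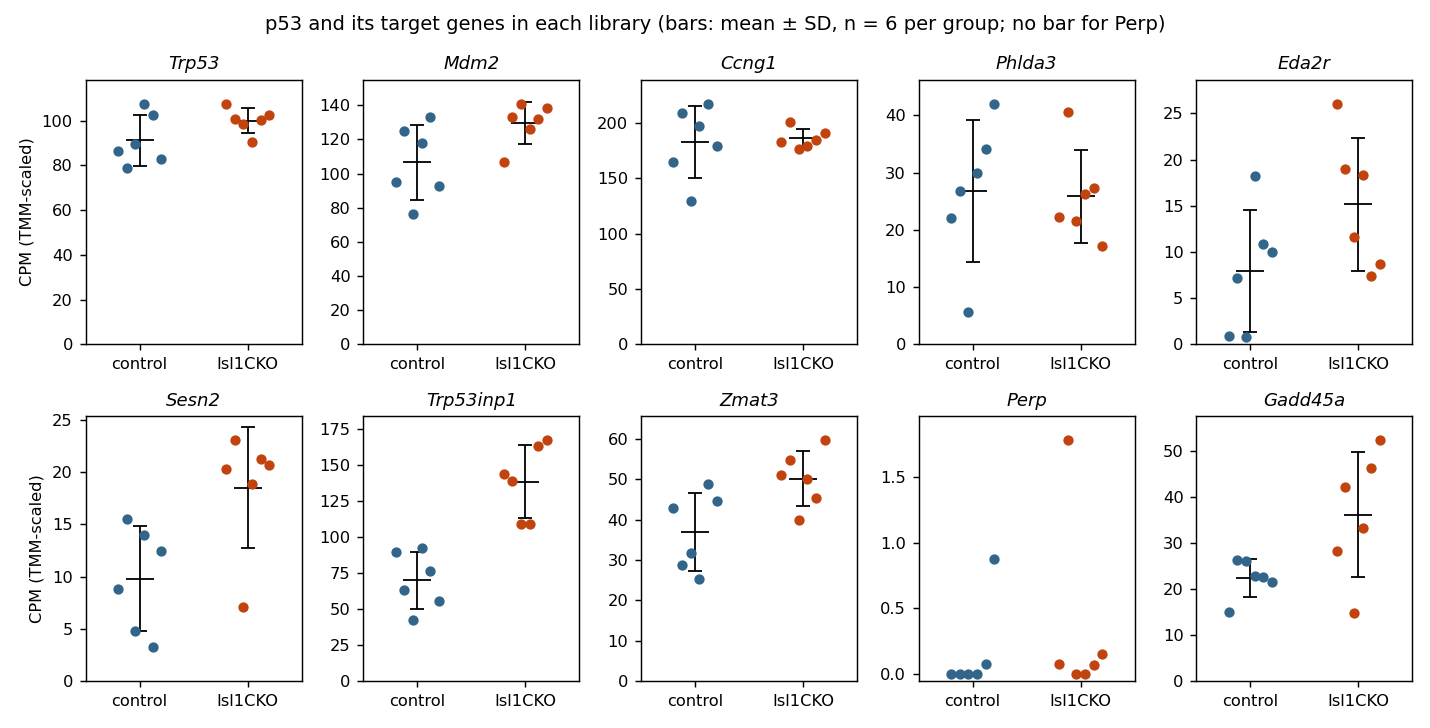
Level of each of the 10 genes in every library, in TMM-scaled CPM on the vertical axis, for 6 control libraries (blue) and 6 libraries labelled Isl1CKO (orange). Horizontal marks and whiskers are the mean and SD, left out for Perp, which is near 0 in most libraries. The groups are apart for Trp53inp1, with 42.3 to 92.3 CPM against 109 to 167 CPM, and overlap for the other genes.

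Trp53 (ENSMUSG00000059552, chromosome 11, 69580359 to 69591873, plus strand) ran from 90.3 to 108 CPM in the libraries labelled Isl1CKO, with a median of 101, and from 78.7 to 108 CPM in controls, with a median of 88.0. The means were 100 ± 5.73 and 91.3 ± 11.3 CPM (SD, n = 6), and control 4 was as high as the highest library of the other group. The change between groups, in log2, was 0.13 (SE 0.09, adjusted p = 0.431 in edgeR). The mRNA level says nothing of how much p53 protein was present.

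Mdm2 (ENSMUSG00000020184, chromosome 10, 117688875 to 117710758, minus strand) encodes the ubiquitin ligase that removes p53 and closes its feedback loop. Its level was 107 to 141 CPM under Isl1CKO, with a median of 133, and 76.2 to 133 CPM in controls, with a median of 106. Of the first group, 3 libraries exceeded every control and 3 lay among the controls. In log2 units the difference was 0.28 (SE 0.13), which did not pass (edgeR adjusted p = 0.201).

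Genes of growth arrest, repair and RNA binding come next. Ccng1 (ENSMUSG00000020326, chromosome 11, 40748552 to 40755311, minus strand) encodes cyclin G1, which recruits a phosphatase to MDM2 and is raised by p53 in many tissues. It had 177 to 201 CPM in the libraries labelled Isl1CKO, with a median of 183, and 129 to 217 CPM in controls, with a median of 188. The former all lay inside the control range, and the fitted log2 change was 0.025 (SE 0.11, adjusted p = 0.923 in edgeR). Its coefficient of variation was 4.81% under Isl1CKO and 17.8% in controls, where control 3 was lowest and control 5 highest.

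Gadd45a (ENSMUSG00000036390, chromosome 6, 67035096 to 67037457, minus strand) encodes a small protein that halts cycling and takes part in DNA repair and demethylation. It had 14.7 to 52.2 CPM in the libraries labelled Isl1CKO, with a median of 37.6, and 15.0 to 26.3 CPM in controls, with a median of 22.6. Isl1CKO 3 was the lowest of all 12 libraries and the other 5 of its group exceeded every control. Fitted on the log2 scale, the change was 0.69 (SE 0.25, adjusted p = 0.104 in edgeR). Without Isl1CKO 3 it was 0.85 and passed (edgeR adjusted p = 0.0105), which raised the count of called members from 1 to 2. Of its exonic bases, 19.1% are shared with E230016M11Rik on the opposite strand, so that reads of the pair could not be told apart without strand, although E230016M11Rik had 477 counts over all 12 libraries.

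Zmat3 (ENSMUSG00000027663, chromosome 3, 32334792 to 32366014, minus strand) encodes a zinc finger protein that binds RNA and affects splicing. It had 40.0 to 59.6 CPM in the libraries labelled Isl1CKO, with a median of 50.6, and 25.2 to 48.8 CPM in controls, with a median of 37.3. In the first group 4 libraries exceeded every control, and the fitted log2 change of 0.44 (SE 0.17) did not pass (edgeR adjusted p = 0.128).

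Trp53inp1 and Sesn2 are tied to autophagy and metabolic stress. Trp53inp1 (ENSMUSG00000028211, chromosome 4, 11156431 to 11174379, plus strand) encodes tumor protein p53-inducible nuclear protein 1, which promotes autophagy and, in the nucleus, helps activate p53. It was at 144, 139, 109, 109, 164 and 167 CPM in the libraries labelled Isl1CKO 1 to 6, and at 89.8, 63.0, 42.3, 92.3, 76.7 and 55.3 CPM in controls 1 to 6. Each library of the first group was above each control, and the other 8 tested members overlapped. Over all tested genes 6.78% did not overlap, 3.12% with the libraries labelled Isl1CKO higher and 3.67% with them lower. The means were 139 ± 25.4 and 69.9 ± 19.8 CPM (SD, n = 6), resting on 509 to 2251 counts per library. The change between groups, in log2, was 0.99 (SE 0.18, adjusted p = 0.00241 in edgeR), and 6 of 6 libraries exceeded every control. Over the 23 alternative settings the log2 fold change ran from 0.87 to 1.08, and the adjusted p was at most 0.029, reached without the 3 libraries that held transcripts of both sexes.

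Sesn2 (ENSMUSG00000028893, chromosome 4, 132492032 to 132510501, minus strand) encodes sestrin 2, which restrains the growth kinase mTORC1 and is also induced by ATF4, the factor of the integrated stress response. It had 7.05 to 23.1 CPM in the libraries labelled Isl1CKO, with a median of 20.5, and 3.24 to 15.5 CPM in controls, with a median of 10.6. All but Isl1CKO 3 exceeded every control. In log2 units the difference was 0.92 (SE 0.37) and did not pass (edgeR adjusted p = 0.148).

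The remaining 3 targets act on survival. Phlda3 (ENSMUSG00000041801, chromosome 1, 135766119 to 135769136, plus strand) encodes a small protein that blocks the survival kinase AKT at the membrane. It had 17.2 to 40.5 CPM in the libraries labelled Isl1CKO, with a median of 24.2, and 5.57 to 42.05 CPM in controls, with a median of 28.4. Fitted on the log2 scale, the change was -0.05 (SE 0.35, adjusted p = 0.953 in edgeR), and the lowest value, in control 3, was far from the other controls, whose lowest was 22.0 CPM.

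Eda2r (ENSMUSG00000034457, chromosome X, 97333840 to 97377216, minus strand) encodes a receptor of the tumour necrosis factor family. It varied most of the tested members, from 7.34 to 26.0 CPM in the libraries labelled Isl1CKO, with a median of 14.9, and from 0.748 to 18.2 CPM in controls, with a median of 8.58. Controls 1 and 3 were under 1 CPM. The mean was 1.90 times higher in the libraries labelled Isl1CKO, yet the log2 fold change of 0.93 had a standard error of 0.61 and did not pass (edgeR adjusted p = 0.398).

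Perp (ENSMUSG00000019851, chromosome 10, 18845020 to 18857073, plus strand) encodes a membrane protein of epithelial junctions that p53 also uses in cell death. It had 23 counts in Isl1CKO 2 and 12 counts in control 6, and no other library had more than 3. No fold change is given.

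**Figure D2:**
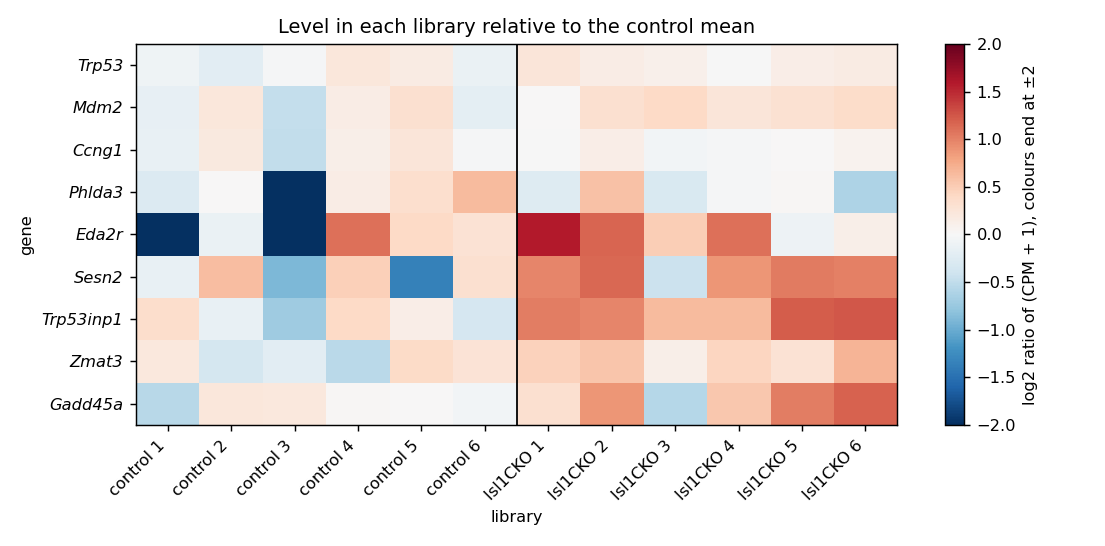
Level of the 9 tested genes (rows) in each of the 12 libraries (columns), as the log2 ratio of CPM + 1 to the control mean of CPM + 1. Red is above and blue below the control mean. Control 3 is blue for most genes, and the Trp53inp1 row is red in all 6 libraries labelled Isl1CKO.

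The libraries did not order the genes in 1 way. Control 3 was the lowest of all 12 for 5 of the 9 tested genes, namely Mdm2, Ccng1, Phlda3, Eda2r and Trp53inp1. It also had the highest mitochondrial share, 1.65%, and the fewest total counts. Without it the log2 fold changes were 0.87 for Trp53inp1, 0.68 for Eda2r, 0.20 for Mdm2, -0.06 for Ccng1 and -0.27 for Phlda3, and Trp53inp1 still passed (edgeR adjusted p = 0.00301). Isl1CKO 6 was the highest for Trp53inp1, Zmat3 and Gadd45a, Isl1CKO 1 for Trp53 and Eda2r, and Isl1CKO 3 for Mdm2. Isl1CKO 3 was at the same time the lowest of its group for 5 of the 9 genes.

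To compare levels between genes, CPM was divided by the length of the merged exons in GENCODE M21. In controls, Ccng1 stood highest at 52.0 ± 9.28 CPM per kilobase. Trp53 followed at 22.6 ± 2.80, Mdm2 at 21.0 ± 4.31 and Phlda3 at 17.2 ± 7.96, where Mdm2 lay within the spread of Trp53 and Phlda3 within that of Mdm2 (SD, n = 6). Ccng1 stood above them beyond the spread. Gadd45a at 12.7 ± 2.33 CPM per kilobase lay within the spread of Phlda3, and Trp53inp1 at 10.8 ± 3.06 within that of Gadd45a. Zmat3 at 3.24 ± 0.844, Sesn2 at 2.82 ± 1.45 and Eda2r at 1.35 ± 1.12 CPM per kilobase were lower than these beyond the spread. Sesn2 lay within the spread of Zmat3, and Eda2r lay just outside that of Sesn2. Perp was at 0.0816 CPM per kilobase, below the floor in most libraries. In the libraries labelled Isl1CKO, Trp53inp1 stood at 21.4 ± 3.92 CPM per kilobase, beside Mdm2 at 25.5 ± 2.41, Trp53 at 24.8 ± 1.42 and Gadd45a at 20.5 ± 7.71 (SD, n = 6). The order rests on merged exons, and a bias of read coverage along the transcript was not tested.

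The next question was how other known p53 targets behaved. Of a list of 60, 56 were in the table, 50 were tested, and 5 rose and 1 fell in the libraries labelled Isl1CKO, or 12% called against 10.2% of all genes. Their median log2 fold change was 0.015, beside 0.0045 over all genes tested, with 27 above and 23 below zero. The genes that rose were Cdkn1a, Sesn1, Btg2, Lpin1 and Tob1, and the one that fell was Zfp385a, a zinc finger protein that binds p53. Fas, Spata18 and Lif were not analysed here.

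Cdkn1a (ENSMUSG00000023067, chromosome 17, 29090976 to 29100727) had 92.9 to 216 CPM in the libraries labelled Isl1CKO, with a median of 137, and 57.05 to 96.2 CPM in controls, with a median of 80.8. Only Isl1CKO 4 fell within the control range. The change between groups, in log2, was 0.94 (SE 0.195, adjusted p = 0.00526 in edgeR), and with the 3 libraries of mixed-sex transcripts left out it was 0.64 and did not pass (edgeR adjusted p = 0.0842). Sesn1, a second sestrin gene, had 36.8 to 70.8 CPM in the libraries labelled Isl1CKO, with a median of 58.9, and 11.4 to 42.4 CPM in controls, with a median of 27.9. Its log2 fold change of 1.08 (SE 0.25, adjusted p = 0.0102 in edgeR) passed under each of the 23 alternative settings, and 5 of 6 libraries exceeded every control.

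Btg2, which encodes an antiproliferative protein, had log2 fold change 0.68 (edgeR adjusted p = 0.0244), and Tob1, of the same family, had 0.43 (edgeR adjusted p = 0.0496). Lpin1, which encodes a lipid phosphatase, had 0.73 (edgeR adjusted p = 0.0305). Zfp385a had a fitted log2 change of -0.51 (edgeR adjusted p = 0.0333), with 51.7 to 103 CPM in the libraries labelled Isl1CKO and 104 to 138 CPM in controls. These 4 calls were lost under 6 of 23 alternative settings for Btg2, 17 for Tob1, 10 for Lpin1 and 7 for Zfp385a. Without the 3 libraries that held transcripts of both sexes, Btg2, Lpin1 and Zfp385a did not pass (edgeR adjusted p = 0.145, 0.0594 and 0.0853). Tob1 still passed there (edgeR adjusted p = 0.0458). The count of called genes of the list fell from 6 to 2 without Isl1CKO 5 and to 3 without control 1.

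Some genes of p53-driven death were picked from the list of other targets after their values were seen, and those tested did not pass. Bax, which permeabilizes mitochondria, had a fitted log2 change of -0.21 (edgeR adjusted p = 0.148) and Bbc3, which encodes PUMA, one of -0.465 (edgeR adjusted p = 0.227). Apaf1, which builds the apoptosome, had 0.55 (edgeR adjusted p = 0.0665). Aen, Pidd1, Ei24 and Siva1 of the same list had -0.12, -0.155, -0.418 and -0.05 (edgeR adjusted p = 0.72, 0.842, 0.282 and 0.91). Pmaip1 and Tnfrsf10b averaged at most 0.682 CPM in either group and were not tested.

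**Figure D3:**
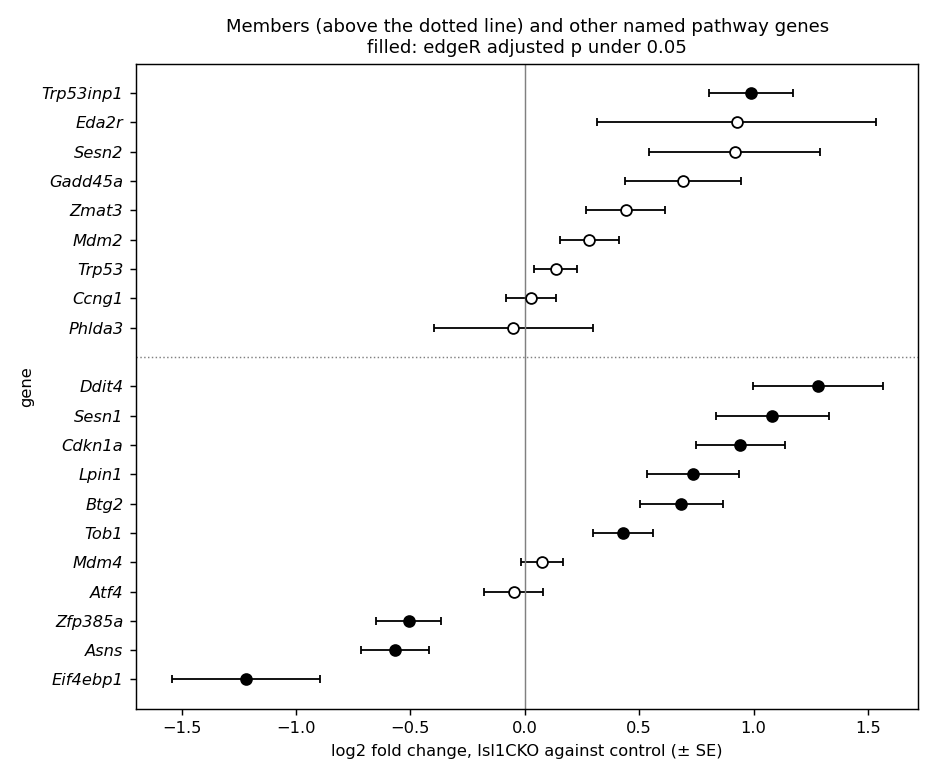
Log2 fold change with its standard error, libraries labelled Isl1CKO against controls (n = 6 per group), for the 9 tested genes (above the dotted line) and for the other pathway genes named in the text (below it). Filled points passed an adjusted p of 0.05 in edgeR. Trp53inp1 is the one filled point above the line, and Ddit4, Sesn1 and Cdkn1a reach about the same size or more below it.

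Genes that control p53 were read next. Of a list of 40, 39 were in the table and 38 were tested, of which 1 passed, or 2.63% against 10.2% of all genes, and their median log2 fold change was 0.036. The edgeR count of regulators called was 0 without any 1 of Isl1CKO 1, 2, 4, 5 and 6. It was likewise 0 without any 1 of controls 1, 4 and 5. It reached 2 without control 3 and 3 without Isl1CKO 3. With all libraries, 5 of the 38 had an unadjusted p under 0.05 in edgeR in either direction, against 23.3% of all genes tested. Mdm4, the partner of MDM2 in holding p53 down, had 92.5 ± 6.05 and 87.8 ± 9.14 CPM (SD, n = 6; edgeR adjusted p = 0.676). Cdkn2a was not analysed here.

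Because Sesn2 and Gadd45a also answer to ATF4, genes of the integrated stress response were read beside them. Of 25 tested, 1 rose and 2 fell, or 12% called against 10.2% of all genes, with a median log2 fold change of -0.056. Ddit4, which like the sestrins restrains mTORC1 and is also a p53 target, had 9.91 to 48.0 CPM in the libraries labelled Isl1CKO, with a median of 36.1, and 11.3 to 16.3 CPM in controls, with a median of 14.2. Its log2 fold change was 1.28 (SE 0.28, adjusted p = 0.00849 in edgeR), and Isl1CKO 3 was the lowest of the 12 libraries, as it was for Gadd45a. Asns, the asparagine synthetase gene that ATF4 drives, had a fitted log2 change of -0.57 (edgeR adjusted p = 0.0236). Eif4ebp1, which encodes a translation inhibitor, had one of -1.22 (edgeR adjusted p = 0.0263), and without control 3 it was -0.94 and did not pass (edgeR adjusted p = 0.0583). Of the 23 alternative settings, 6 ended the call of Eif4ebp1, with an edgeR adjusted p of up to 0.107. They include leaving out Isl1CKO 6 (edgeR adjusted p = 0.053) or the 3 libraries with both sexes' transcripts (edgeR adjusted p = 0.0987). The call of Asns ended under 3 settings. These were leaving out Isl1CKO 4 (edgeR adjusted p = 0.0546) or control 2 (edgeR adjusted p = 0.0509), and the macrophage and Schwann cell covariates (edgeR adjusted p = 0.0715). Atf4 itself had 115 ± 14.0 and 119 ± 25.1 CPM (SD, n = 6; edgeR adjusted p = 0.867). Cebpb was not analysed here.

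**Figure D4:**
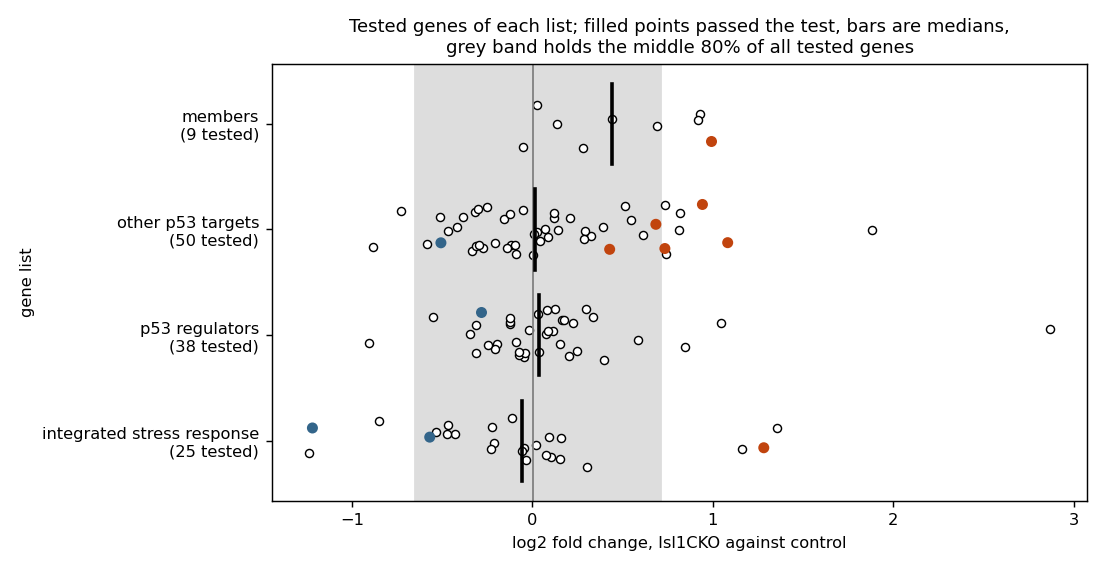
Log2 fold change of every tested gene of the 4 gene lists, libraries labelled Isl1CKO against controls. Filled points passed the adjusted threshold, orange when higher and blue when lower, black bars are list medians, and the grey band holds the middle 80% of all 14813 tested genes, from -0.65 to 0.71. The 9 members have a median of 0.44 and the other lists have medians within 0.06 of zero.

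Markers of other cells and of stress were read in the same libraries, as summed CPM. Cell cycle genes, 16 of 16 above 3 counts in at least 1 library of each group, summed to 162 to 647 CPM in the libraries labelled Isl1CKO and 127 to 414 CPM in controls. Its defining genes Mki67, Top2a and Ccnb1 had means of 16.5, 48.7 and 20.4 CPM in the libraries labelled Isl1CKO and 7.40, 17.1 and 6.45 CPM in controls. The spread was wide, with Top2a at 1.12 to 130 CPM in the former and 1.92 to 46.9 CPM in the latter. None of the 3 passed (edgeR adjusted p = 0.647, 0.442 and 0.329). With the cell cycle sum as a covariate Trp53inp1 had a fitted log2 change of 0.91 (edgeR adjusted p = 0.00972) and Gadd45a 0.63 (edgeR adjusted p = 0.216). Macrophage markers, 10 of 10 above 3 counts, summed to 1.78 to 762 CPM and 3.10 to 389 CPM, with Csf1r and C1qa at 0 in Isl1CKO 2. Schwann cell markers, 10 of 10, summed to 34.9 to 266 CPM and 39.9 to 186 CPM. With both as covariates Trp53inp1 had 0.91 (edgeR adjusted p = 0.011). Mesenchyme markers summed to 71.8 to 122 CPM and 38.5 to 84.3 CPM, with 9 and 10 of 10 above 3 counts, and their 3 defining genes differed in direction. Tbx18 had 24.5 to 51.2 CPM in the libraries labelled Isl1CKO against at most 3.72 CPM in controls (edgeR adjusted p = 3.49e-04). Its means were 39.4 and 1.09 CPM, and the mesenchyme sum was not read without it. Of the 4 mesenchyme markers tested, 2 were called higher, Tbx18 among them, and 0 lower, against 5.01% and 5.19% of all genes. Pou3f4 had means of 27.3 against 52.7 CPM (edgeR adjusted p = 0.143), and Col1a1 was not tested, with means of 0.562 and 0.233 CPM. Hair cell and cochlear epithelium markers, 9 of 9 in the table above 3 counts, summed to 286 to 575 CPM and 244 to 500 CPM, with Gfi1 at most 0.331 CPM in any library. Immediate early and heat shock genes, 10 and 11 of 11 above 3 counts, summed to 698 to 813 CPM and 484 to 705 CPM, and 5 of the 6 libraries labelled Isl1CKO exceeded every control. Endothelium and blood markers summed to at most 29.6 CPM over the 5 in the table, and 3 of these were above 3 counts in each group. The part of the differences in the mesenchyme sum, the stress gene sum and the mitochondrial share in the result for Trp53inp1 was not tested.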

How the data were processed

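The authors deposited 1 table of whole-number read counts per Ensembl gene for 12 libraries, not normalized. Per the submitters' processing notes, which give no roles, cutadapt 1.18, Bowtie 1.2.2, STAR 2.7.0c and featureCounts were used with build GRCm38.p6. The annotation and the use of strand are not given in the sources used here. Symbols matched 25620 identifiers. Gene positions and exon lengths come from GENCODE M21 on GRCm38.

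Counts were tested with edgeR 4.0.16 under R 4.3.3: filterByExpr (minimum count 10), TMM scaling, robust quasi-likelihood F-test of genotype over all 12 libraries with no covariate, Benjamini-Hochberg adjustment over 14813 genes, threshold 0.05. The standard error is the absolute log2 fold change divided by the square root of F. The test was checked on simulated data. Alternatives were DESeq2 1.42.0, limma-voom (limma 3.58.1), other scalings and filters, a replicate block, marker covariates and left-out libraries. Within each genotype every pair of libraries differed by more than sampling noise, so no library was counted as a duplicate.

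The members and the lists were chosen with earlier results of these data known. Named genes are the 10 members, Isl1, up to 6 called genes with the smallest p from each other list, Cdkn1a, Mdm4, Cdkn2a (looked for, but not analysed here) and Atf4, and the first 3 markers of each marker list. Values of 1 gene that the rule names are not reported here.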

Additional observations from a re-analysis of the deposited data

Results flagged for a closer look

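In 7 of 62 group values checked, 1 library lay far from the other 5 of its group (Dixon's criterion), where chance flags about 1 in 20, or 3.1. Sesn2 was at 7.05 CPM in Isl1CKO 3, against 18.9 to 23.1 CPM in the other libraries labelled Isl1CKO. Without that library the log2 fold change of Sesn2 was 1.08 (edgeR adjusted p = 0.0632). Perp was at 1.78 CPM in Isl1CKO 2, against at most 0.152 CPM in the rest of its group, and at 0.876 CPM in control 6, against at most 0.0790 CPM in the other controls. Eif4ebp1 was at 22.4 CPM in control 3, against 8.35 to 11.1 CPM in the other controls. Summed macrophage markers reached 762 CPM in Isl1CKO 4, against 1.78 to 244 CPM in the rest of its group, and 389 CPM in control 1, against 3.10 to 64.3 CPM in the other controls. Summed endothelium and blood markers reached 29.6 CPM in Isl1CKO 3, against 0.218 to 5.65 CPM in the rest of its group.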

How the results depend on the processing

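Of 506 values for 22 single genes over 23 alternative settings, 429 kept their direction and their side of the threshold, 64 lost a call, 1 gained one and 12 changed sign, all of the last for genes not called. The count of 1511 genes called fell to 767 when the 3 libraries holding both sexes' transcripts were left out. With 1 library left out, the number of called members ran from 1 to 2. The 6 other p53 targets called became 10 under the DESeq2 Wald test, 3 with the cell cycle covariate, 2 without the 3 libraries, and 2 to 8 with 1 library left out. The single p53 regulator became 3 under DESeq2 and 2 under limma-voom. In edgeR it became 0 with no expression filter, with macrophage and Schwann cell covariates, with robust estimation off and without the 3 libraries. With 1 library left out the count was 0 to 3. In the main edgeR test 5 of 38 regulators had an unadjusted p under 0.05, against 23.3% of all genes. The 3 stress response genes became 1 with macrophage and Schwann cell covariates. The cause was not tested. Ccng1 had a log2 fold change of -0.0036 with limma-voom, -0.026 with the cell cycle covariate, and -0.064 to 0.075 with 1 library left out. Phlda3 ran from -0.27 to 0.12 with 1 library left out. Atf4 had 0.017 with limma-voom, 0.013 with the cell cycle covariate, and -0.10 to 0.062 with 1 library left out. The labels do not say that replicate numbers pair libraries across genotypes, same-numbered libraries' deviations correlated at -0.0575 to 0.148, and 4 of 12 libraries correlated best with their own number. With the replicate block 1450 genes were called, 0 regulators passed, Phlda3 had 0.094, and Trp53inp1 had 1.02 (edgeR adjusted p = 0.00484). Most libraries held Perp at 3 counts or fewer, and the part of depth in this was not tested.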

Other observations

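Close relatives of the members were chosen after the data were seen and read from the same test over all genes. Phlda1, a relative of Phlda3, rose from 37.5 ± 11.86 CPM in controls to 171 ± 48.0 CPM under Isl1CKO (SD, n = 6), and the fitted log2 change was 2.19 (SE 0.22, adjusted p = 1.35e-05 in edgeR). Its lowest library labelled Isl1CKO had 89.9 CPM and its highest control 61.2 CPM. Phlda3 itself had a log2 fold change of -0.05. Gadd45g, which like Gadd45a encodes a growth arrest protein, fell from 164 ± 22.8 to 101 ± 21.1 CPM (SD, n = 6). Its fitted log2 change was -0.69 (SE 0.14, adjusted p = 0.00446 in edgeR), where Gadd45a had one of 0.69. Gadd45b had at most 10 counts in any library. Tmem47, a distant relative of Perp, rose from 109 ± 32.6 to 164 ± 12.2 CPM (SD, n = 6; log2 fold change 0.59, edgeR adjusted p = 0.0256), while Perp was near the floor. None of these differences between relatives was tested as such, and the calls of Phlda1, Gadd45g and Tmem47 were not examined under the alternative settings.

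Among the sestrin genes, Sesn1 rose, Sesn2 had a similar log2 fold change without passing, and Sesn3 had one of -0.23 (edgeR adjusted p = 0.464). Trp53inp2, the relative of Trp53inp1, had a log2 fold change of 0.32 (SE 0.23, adjusted p = 0.433 in edgeR), and its lowest library was Isl1CKO 3, at 38.05 CPM. The p53 relative Trp73 was at 0.150 to 6.71 CPM in the libraries labelled Isl1CKO and 0.0739 to 1.68 CPM in controls, with a log2 fold change of 2.87 and a standard error of 0.89 (edgeR adjusted p = 0.0538). Trp63 had at most 6 counts in any library. Ccng2, Mdm4, Zmat1 and Tnfrsf19 did not pass, and neither did Zmat4 (log2 fold change -0.77, edgeR adjusted p = 0.0577).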
